A study of Mus musculus with 27 samples.

Results

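NMuMG cells, an epithelial line from normal mouse mammary gland, that carried a control shRNA were compared after 24 h with TGF-β and untreated, at 0 h. No untreated library at 24 h is labelled in either population, so TGF-β cannot be told apart from time in culture. The comparison rests on 4 of the 27 samples of the series, 2 untreated control libraries and 2 libraries of control cells treated for 24 h, and 11450 of the 24247 genes in their table reached the minimum level for a test. The question here is which genes repeated, and which did not, the 24 h response of parental NMuMG cells, which carried no shRNA and were sequenced as 2 untreated libraries and 2 libraries at 24 h. Control cells had been infected with a lentivirus carrying an irrelevant shRNA (how infected cells of these libraries were selected is not given in the sources used here), and they serve in the study as the reference for cells in which lamin B1 was knocked down (KD). All these cells were grown in medium with serum and insulin, and TGF-β was given at 1 to 5 ng/ml, as the labels state it. Control libraries at 8 h (2 libraries) and the KD libraries (6 libraries) entered the same fit, and lamin B1 ChIP-seq and ATAC-seq peaks of NMuMG cells (1 library per time point) were set beside the gene classes.

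TGF-β is a secreted ligand that binds a pair of receptor kinases, and these phosphorylate Smad2 and Smad3, which enter the nucleus with Smad4. In mammary epithelial cells it starts the epithelial-to-mesenchymal transition (EMT), in which transcription factors of the Snail and Zeb families repress junction genes such as Cdh1 (E-cadherin) while matrix and actin genes rise. It also slows the cell cycle of epithelial cells, classically through CDK inhibitors such as Cdkn2b.

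Values are FPKM (fragments scaled by transcript length and by the mapped fragments of the library), and a log2 change is a difference of log2(FPKM + 1), which understates the change of genes with low values. A gene was called where the Benjamini-Hochberg adjusted p of limma, taken over all genes tested in its table, was under 0.05. Control and parental tables were normalized separately, so no test was made across them and each was read by its own calls. Each test used a spread pooled over all groups of its table, with 2 libraries per group. For control cells this includes the 8 h and KD libraries, so an SE is not the spread of the compared libraries alone. The study describes the libraries of a group as biological replicates.

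The libraries differed in ways that bear on the results. Relative depth, read from the smallest steps between FPKM values, was 86.4% to 104% of the first library among the 4 control libraries. Small RNA genes held 12% to 15.1% of all FPKM in untreated control cells and 32.5% to 40.3% at 24 h, against 21.6% to 23.0% and 26.0% to 31.5% in parental cells, and the median log2 change over all genes tested was -0.13 in control and -0.02 in parental cells. The part of these shares in that shift was not tested, and gene lists are given below relative to each median. Untreated control replicate 1 lay above replicate 2 in 70.3% of the genes called higher in both populations and in 40.6% of those called lower in both. It did so in 56.3% of all 10843 genes tested in both tables. The count of reversed genes and some of the list counts are therefore also given without it. Of the luminal epithelial markers, Krt8 and Krt18, keratins of simple epithelia, were at 2487 and 2638 FPKM and 2307 and 2606 FPKM in untreated control cells. All 7 markers of that list summed to 5971 to 6294 FPKM there. Not every member was expressed: 2 stayed under 1 FPKM in all 4 control libraries, and 1 of them was listed at 0 in each. Cldn4, given below, was also far under that level before treatment. Summed over their lists, the markers of fibroblasts (6 genes) were at 0.0837 to 0.171 FPKM in untreated and 1.28 to 1.49 FPKM in 24 h control cells, and those of endothelium (4 genes) at 0.0132 to 0.0138 and 0.413 to 0.448 FPKM. Those of adipocytes (4 genes) were at 0.115 to 0.203 and 0.0868 to 0.203 FPKM, those of immune cells (7 genes) at 1.62 to 1.80 and 2.73 to 2.81 FPKM, and those of basal cells (5 genes) at 4.48 to 4.86 and 2.09 to 2.15 FPKM. Untreated parental cells showed more of the fibroblast markers, 5.32 to 5.82 FPKM, and of the adipocyte markers, 4.61 to 5.12 FPKM. The matrix gene Col3a1, for one, was at 3.73 and 3.48 FPKM there and at 0.00303 and 0.00292 FPKM in untreated control cells. The part of these markers in the differences between the tables was not tested.

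Control cells changed broadly by 24 h, and most of the parental response came back. At 24 h, 8093 of 11450 genes (70.7%) were called in control cells, 2924 higher (25.5%) and 5169 lower (45.1%), and 681 and 989 of these changed at least 2-fold. Quantile normalization, which removes the shift of the median, gave 3900 higher and 3901 lower calls, so the share of calls that were higher, 36.1% as scaled by the authors, became nearly even. In parental cells 7975 of 11309 genes (70.5%) were called, 3781 higher (33.4%) and 4194 lower (37.1%).

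Among the 10843 genes tested in both tables, 6024 were called the same way, which is 78.6% of the 7661 parental calls and 78.1% of the 7717 control calls. Of the 3615 parental rises, 66.1% were called higher in control cells, where 25.5% of all these genes were. Of the 4046 parental falls, 89.8% were called lower in control cells, where 45.7% of all these genes were. After quantile normalization these shares were 77.6% and 80.8%, so the gap between rises and falls was smaller there. Large parental changes, of at least 2-fold, repeated nearly throughout: 560 of 577 rises (97.1%) and 696 of 703 falls (99.0%) were called the same way in control cells. Across genes, which are not independent replicates, the log2 changes of both populations had a Pearson r of 0.886 and a Spearman rho of 0.881 (n = 10843 genes).

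**Figure D1:**
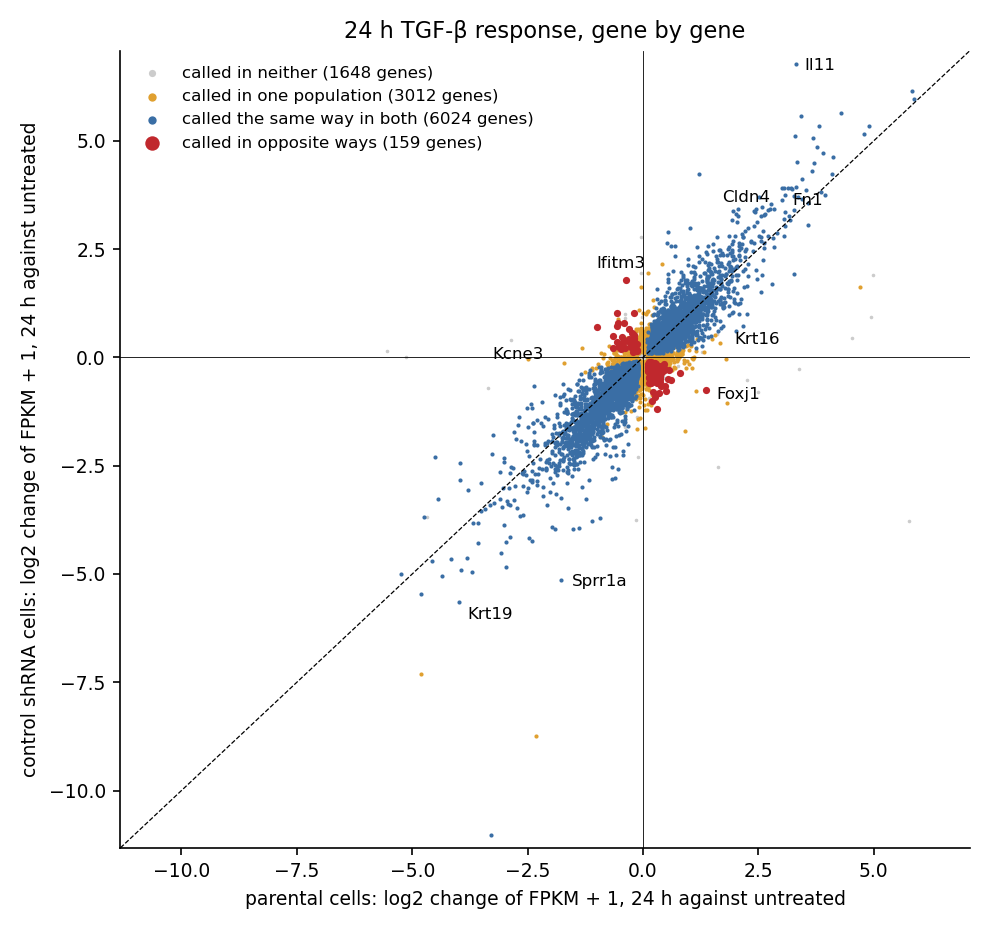
Log2 change at 24 h of each of the 10843 genes tested in both tables, in parental cells (horizontal axis) and in control shRNA cells (vertical axis), on the log2(FPKM + 1) scale; colours give the calls and the dashed line marks equal changes. The 6024 genes called the same way lie along the line, and the 159 genes called in opposite ways (red) lie close to the origin except for a few such as Ifitm3 and Foxj1.

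The change was of similar size in control and parental cells, and on the whole slightly larger in control cells. Over the 1280 large parental calls, the log2 change of control cells was a median of 1.09 times the parental one, with quartiles of 0.859 and 1.30. The median was 1.02 for the rises and 1.15 for the falls. These ratios describe the tables and were not tested. They were not taken relative to the median change of all genes tested, which was -0.13 in control and -0.02 in parental cells. The part of that shift in the gap between rises and falls was not tested.

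The large rises given here were called in both populations. Il11, a cytokine of the interleukin-6 family, went from 0.705 and 0.852 FPKM in the untreated control libraries to 189 and 199 FPKM after treatment (6.78 ± 0.093 (SE), adjusted p = 2.68e-10). In parental cells it went from 10.6 and 10.7 FPKM to 125 and 106 FPKM (3.32 ± 0.083 (SE), adjusted p = 4.69e-07). Treated libraries lay far above untreated ones in both tables, with a lower start in control cells. Thbs1, thrombospondin-1, a matrix protein that can activate latent TGF-β, rose 43.8-fold, from 11.8 and 12.4 FPKM to 536 and 527 FPKM (5.34 ± 0.055 (SE), adjusted p = 1.14e-10). In parental cells it went from 13.2 and 14.3 FPKM to 215 and 199 FPKM, in a table that was scaled separately.

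Col5a3, a chain of type V collagen, went from 0.0276 and 0.0425 FPKM to 71.1 and 74.8 FPKM in control cells (6.16 ± 0.08 (SE), adjusted p = 2.19e-10) and from 0.136 and 0.221 FPKM to 65.7 and 65.2 FPKM in parental cells. Ctsw, cathepsin W, a cysteine protease best known from cytotoxic lymphocytes, went from 0.336 and 0.759 FPKM to 93.5 and 95.5 FPKM (5.96 ± 0.14 (SE), adjusted p = 5.20e-09). Its parental values, 0.811 and 0.751 FPKM and then 105 and 101 FPKM, were close to these. Ass1 (argininosuccinate synthase, an enzyme of arginine synthesis), Lce1g and Lce1b (late cornified envelope proteins of skin) and the predicted gene Gm1045 rose by 5.15, 5.35, 4.64 and 5.64 on the log2 scale in control cells and by 4.78, 4.89, 4.11 and 4.3 in parental cells. Ass1 and the Lce1 genes have near-identical copies in the genome, so how reads were shared among copies is uncertain.

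The large falls given here were also called in both. Krt19, a keratin of simple epithelia, fell from 1056 and 945 FPKM to 18 and 19.6 FPKM in control cells, a 53.1-fold drop of the mean (-5.66 ± 0.31 (SE), adjusted p = 4.16e-07). In parental cells it fell from 1005 and 982 FPKM to 55.5 and 69.1 FPKM, 15.9-fold. The untreated values of both tables were close, and the treated ones were lower in control cells. Krt6a, a keratin of stratified and stressed epithelia, fell from 47.4 and 71.3 FPKM to 0.34 and 0.354 FPKM (-5.46 ± 0.16 (SE), adjusted p = 1.55e-08). Sprr1a, a precursor of the cornified envelope, fell from 4026 and 3614 FPKM to 103 and 111 FPKM (-5.14 ± 0.22 (SE), adjusted p = 1.06e-07), and in parental cells from 1724 and 1727 FPKM to 491 and 522 FPKM (-1.77 ± 0.096 (SE), adjusted p = 5.66e-06). Its drop was 35.7-fold in control and 3.4-fold in parental cells.

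Lgals2 and Lgals4 are galectins of the gut epithelium. Lgals2 fell from 1872 and 1939 FPKM to 63.6 and 60.9 FPKM (-4.91 ± 0.045 (SE), adjusted p = 8.56e-11), and Lgals4 from 68.4 and 65.6 FPKM to 1.19 and 1.05 FPKM (-5.00 ± 0.056 (SE), adjusted p = 1.32e-10). Most of both falls came after 8 h, when Lgals2 was at 1395 and 1384 FPKM and Lgals4 at 66 and 72.6 FPKM, whereas Krt19 was already at 174 and 176 FPKM. The detoxification enzymes Akr1c19 (an aldo-keto reductase), Ugt2b34 (a glucuronosyltransferase) and Gsta4 (a glutathione transferase) fell by 5.04, 4.95 and 4.66 on the log2 scale, and by 4.35, 3.7 and 4.16 in parental cells. Itgb7, the integrin β7 chain, fell by 4.71 and 4.57. Alb, serum albumin, was at 36 and 20.9 FPKM in untreated control cells and is listed at 0 in both 24 h libraries, a listing that can also be a failed estimate, since Hmgcs1, a gene of sterol synthesis that growing cells use, is listed at 0 in every library given here.

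**Figure D2:**
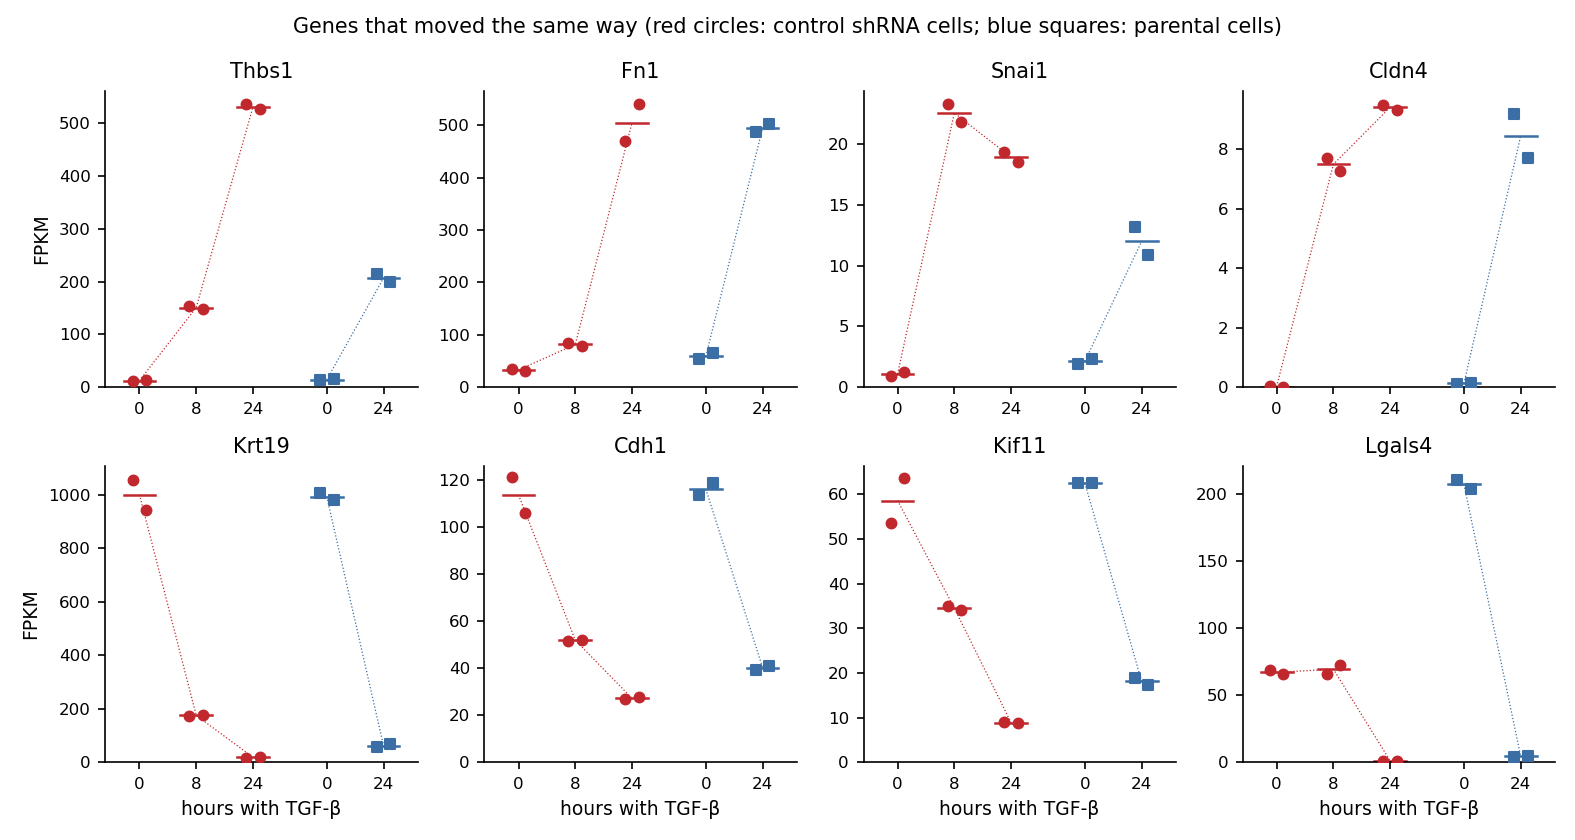
FPKM of 8 genes that moved the same way in both populations, with each point a library and each bar the mean of 2 libraries, for control shRNA cells at 0, 8 and 24 h (red circles) and parental cells at 0 and 24 h (blue squares), on linear axes that start at 0. Treated and untreated libraries do not overlap at 24 h in any panel, as in 86.8% of the genes tested in control and 86.1% in parental cells.

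The gene lists were read by their members, with the median of each list given relative to the median of all genes tested in its table. Each median covers the members tested in its own table, and their number can differ between control and parental cells. Counts of members are to be read beside the shares of all genes tested. Those were 25.5% higher and 45.1% lower in control cells and 33.4% and 37.1% in parental cells, with 78.6% of parental calls repeated. Members named beyond the extremes of a list were picked as examples after their values were seen. The list of mesenchymal and matrix genes rose: 17 of 20 tested members were called higher in control cells and 1 lower, with a median of 2.46 above that of all genes, and all 18 of these were called the same way in parental cells, where the median was 1.26 above. Another 4 members, Col1a2, Col3a1, Postn and Mmp2, reached the minimum level in the parental table and not in the control table, so the parental median covers 24 members and the control median 20. Fn1, fibronectin, went from 34.8 and 30.6 FPKM to 469 and 541 FPKM in control cells (3.91 ± 0.30 (SE), adjusted p = 3.54e-06), against 53 and 64.4 FPKM and 486 and 503 FPKM in parental cells. At 8 h Fn1 had only reached 83.6 and 78.8 FPKM, so most of its rise came after that time. Cdh2, N-cadherin, rose from 32.2 and 30.5 FPKM to 73.4 and 73 FPKM (1.2 ± 0.042 (SE), adjusted p = 3.47e-08). Tnc, the matrix protein tenascin-C, started at 5.83 and 6.38 FPKM in control and 52.2 and 62 FPKM in parental cells and ended at 129 and 136 FPKM and 131 and 137 FPKM, close to each other. The member that fell was S100a4, a calcium-binding protein used as a fibroblast marker, from 922 and 1065 FPKM to 410.2 and 437 FPKM (-1.22 ± 0.093 (SE), adjusted p = 3.43e-06). Vim, vimentin, was already high and was not called in control cells, at 1222 and 1404 FPKM and then 1505 and 1394 FPKM (0.14 ± 0.082 (SE), adjusted p = 0.142). It was called lower in parental cells (-0.21 ± 0.045 (SE), adjusted p = 0.00489) and higher in control cells after quantile normalization (log2 change 0.35, adjusted p = 0.0123) or without untreated control replicate 2 (0.24, adjusted p = 0.0348).

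Among the transcription factors of EMT, 8 of 11 were called higher and 2 lower in control cells, with a median of 1.02 above that of all genes, against 0.86 in parental cells. Snai1, which encodes Snail, went from 0.889 and 1.25 FPKM to 19.3 and 18.5 FPKM in control cells (3.27 ± 0.091 (SE), adjusted p = 1.10e-08) and from 1.93 and 2.29 FPKM to 13.1 and 10.9 FPKM in parental cells. Its highest value came at 8 h, 23.3 and 21.9 FPKM. Zeb1 and Zeb2, repressors of Cdh1, rose by 1.39 and 1.33 in control and by 1.69 and 1.4 in parental cells. Twist2 fell from 4.06 and 4.2 FPKM to 1.86 and 1.66 FPKM (-0.89 ± 0.12 (SE), adjusted p = 1.17e-04), as it did in parental cells (-1.04 ± 0.095 (SE), adjusted p = 6.09e-05), and Twist1 stayed under the minimum for a test in control cells, at 0.888 and 0.97 FPKM at 24 h. A pair of members did not repeat: Ets1 was lower in control cells by a small margin (-0.19 ± 0.074 (SE), adjusted p = 0.0471) and higher in parental cells (0.39 ± 0.066 (SE), adjusted p = 0.00148), and Sox9 had 9.85 and 6.91 FPKM and then 8.93 and 7.87 FPKM in control cells (0.02 ± 0.19 (SE), adjusted p = 0.936) against a parental rise from 5.51 and 5.99 FPKM to 11 and 10.1 FPKM. After quantile normalization, or without either untreated control library, no factor of the list was called in opposite ways.

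**Figure D3:**
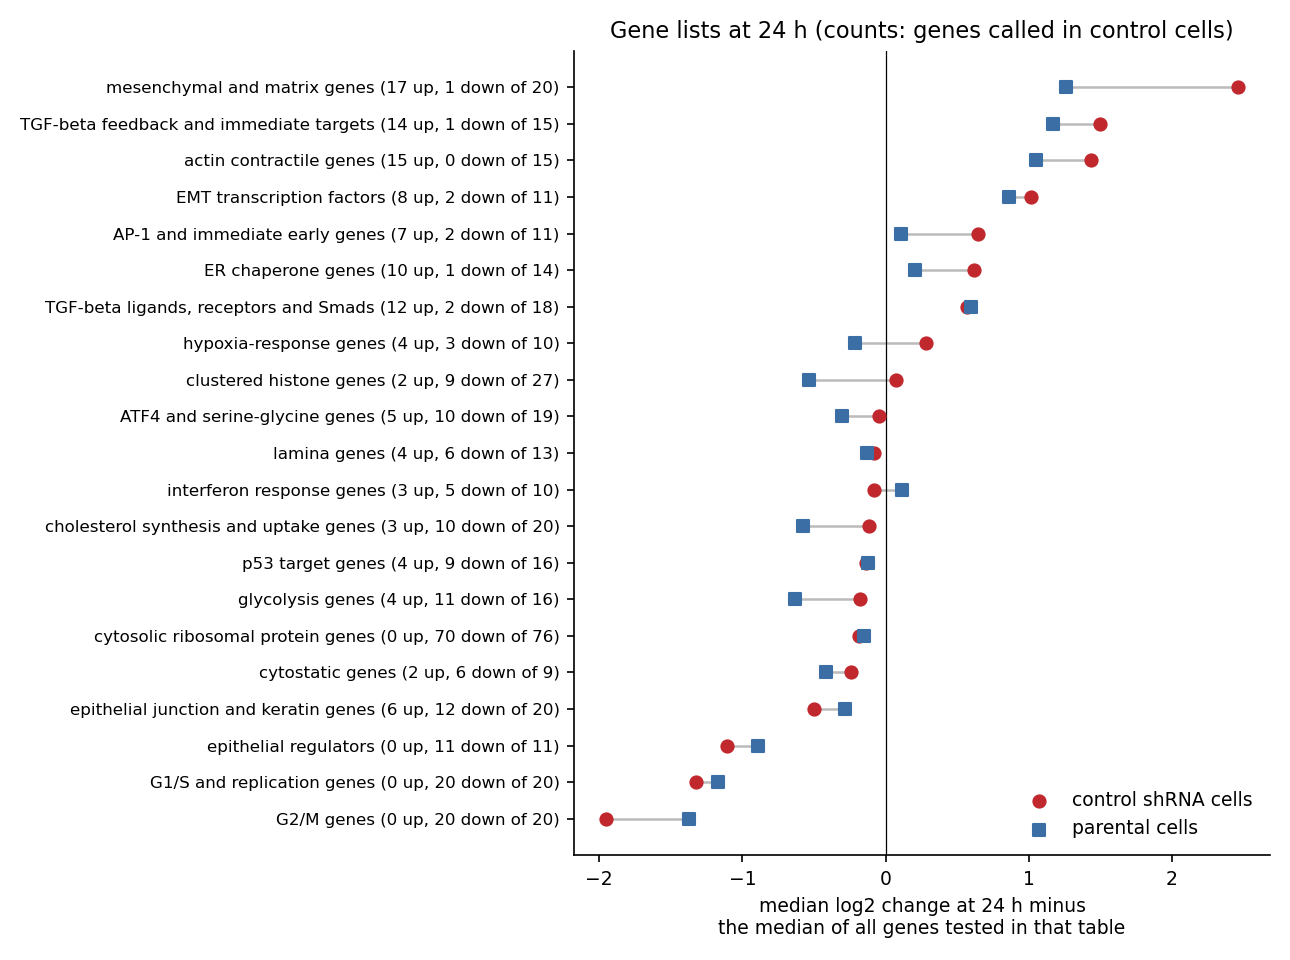
Median log2 change at 24 h of 21 gene lists, minus the median of all genes tested in the same table (horizontal axis), for control shRNA cells (red circles) and parental cells (blue squares); the counts beside each list are genes called in control cells. Mesenchymal and matrix genes lie at 2.46 in control and 1.26 in parental cells at one end, and G2/M genes at -1.95 and -1.37 at the other, while the hypoxia-response, interferon response and clustered histone lists lie on opposite sides of 0. Each median covers the members tested in its own table, 20 control and 24 parental for mesenchymal genes and 27 and 19 for histones. The histone control median, 0.07, was -0.01 after quantile normalization and -0.12 without untreated control replicate 2.

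Epithelial genes did not move as a block. Of 20 tested junction and keratin genes, 12 were called lower and 6 higher in control cells, with a median of -0.50 relative to all genes (-0.29 in parental cells), and 15 of the 16 called in parental cells were called the same way. Cdh1 fell from 121 and 106 FPKM to 26.8 and 27.6 FPKM (-2.02 ± 0.10 (SE), adjusted p = 3.16e-07), with parental values of 113 and 119 FPKM and 39.4 and 41.1 FPKM. Crb3, an apical polarity protein, fell from 7.82 and 6.06 FPKM to 1.07 and 0.838 FPKM (-2.02 ± 0.13 (SE), adjusted p = 1.04e-06). Ocln, occludin of the tight junction, fell from 10.8 and 9.35 FPKM to 2.98 and 3.54 FPKM (-1.38 ± 0.099 (SE), adjusted p = 2.45e-06). The opposite held for Cldn4, a claudin of the same junction, which went from 0.0204 and 0.00982 FPKM to 9.49 and 9.32 FPKM in control cells (3.36 ± 0.23 (SE), adjusted p = 1.63e-06) and from 0.0923 and 0.147 FPKM to 9.19 and 7.69 FPKM in parental cells. Krt7, another keratin, rose in both but far more in control cells, from 6.96 and 7.03 FPKM to 59.2 and 57 FPKM (2.89 ± 0.15 (SE), adjusted p = 3.36e-07), against 3.48 and 3.19 FPKM and 5.23 and 5.44 FPKM in parental cells. Dsg2, desmoglein of the desmosome, was called in control cells alone, from 11.2 and 9.21 FPKM to 4.83 and 5.49 FPKM (-0.86 ± 0.09 (SE), adjusted p = 2.88e-05), with parental values of 9.46 and 10.6 FPKM and 9.75 and 10.2 FPKM.

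All 11 tested epithelial regulators were called lower in control cells, with a median of -1.11 relative to all genes, and the 9 called in parental cells were among them. After quantile normalization 10 of the 11 were called. Id2, an inhibitor of basic helix-loop-helix factors that TGF-β represses in epithelium, fell from 389 and 379 FPKM to 34.3 and 32.6 FPKM (-3.48 ± 0.086 (SE), adjusted p = 5.72e-09) and was lower still at 8 h, at 17.1 and 18 FPKM. Rbm47, an RNA-binding protein of epithelial splicing, fell from 22.4 and 20.5 FPKM to 1.19 and 1.08 FPKM (-3.4 ± 0.096 (SE), adjusted p = 1.17e-08). Id3 fell in control cells, from 89.4 and 68.9 FPKM to 42.4 and 39.9 FPKM (-0.92 ± 0.10 (SE), adjusted p = 3.97e-05), and was not called in parental cells, at 86.9 and 73.2 FPKM and then 71.4 and 75.4 FPKM.

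The immediate targets and feedback genes of TGF-β repeated in full. In control cells 14 of 15 were called higher and 1 lower, with a median of 1.5 above that of all genes (1.17 in parental cells), and all 15 were called the same way in both. Smad7, an inhibitory Smad, rose from 5.88 and 5.88 FPKM to 22.4 and 20.9 FPKM (1.72 ± 0.079 (SE), adjusted p = 1.64e-07). Ctgf, a matricellular growth factor, rose from 75.5 and 72 FPKM to 829.7 and 775 FPKM (3.43 ± 0.073 (SE), adjusted p = 2.60e-09), and Skil, a corepressor of Smads, from 14.5 and 13.4 FPKM to 36.9 and 38.4 FPKM (1.37 ± 0.094 (SE), adjusted p = 1.87e-06). Smad6, the other inhibitory Smad, was the member that fell (-0.34 ± 0.096 (SE), adjusted p = 0.0117), a call that was lost without untreated control replicate 1 (adjusted p = 0.0815), without 24 h control replicate 2 (0.0823) and after quantile normalization (0.106).

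The ligands, receptors and Smads split. Of 18 tested, 12 were called higher and 2 lower in control cells, with a median of 0.57 above that of all genes (0.60 in parental cells), and 12 of the 15 called in parental cells were called the same way. Inhba, the activin A subunit, rose from 14.8 and 17 FPKM to 216 and 224 FPKM (3.71 ± 0.29 (SE), adjusted p = 4.09e-06). Acvr1, a type I receptor of BMPs and activin, rose from 20.8 and 21 FPKM to 59.8 and 57.8 FPKM (1.45 ± 0.044 (SE), adjusted p = 1.68e-08). Smad3, the signal transducer itself, went opposite ways: it fell from 39.6 and 36.1 FPKM to 26.6 and 27.4 FPKM in control cells (-0.47 ± 0.05 (SE), adjusted p = 3.24e-05) and rose from 26.2 and 27.3 FPKM to 32.6 and 32 FPKM in parental cells (0.26 ± 0.04 (SE), adjusted p = 8.30e-04). The groups did not overlap in either table. Tgfb2, a ligand that rose in parental cells (1.16 ± 0.074 (SE), adjusted p = 1.15e-05), is described below among the genes that did not repeat.

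All 15 tested actin contractile genes were called higher in control cells and called the same way in parental cells, with medians of 1.43 and 1.05 above those of all genes. The parental median covers the 17 members tested there. Zyx, zyxin of focal adhesions, rose from 35.7 and 29.2 FPKM to 185 and 180.0 FPKM (2.46 ± 0.092 (SE), adjusted p = 5.06e-08). Cnn2, a calponin, rose from 38.8 and 40.2 FPKM to 182 and 179 FPKM, nearly all of it after 8 h, when it was at 47.4 and 48.9 FPKM. Acta2, smooth muscle actin, started at 0.103 and 0.0597 FPKM in control and 2.71 and 2.53 FPKM in parental cells and reached 1.88 and 1.89 FPKM and 3.98 and 4.14 FPKM. Its level was near 0 before treatment in control cells, where the log2 change was 1.42 against 0.48 in parental cells.

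The cell cycle genes tested all fell. All 20 genes of G1/S and replication and all 20 of G2/M were called lower in both populations, as 45.1% of all genes tested in control cells were. Relative to all genes the medians were -1.32 and -1.95 in control cells and -1.17 and -1.37 in parental cells. Mcm5, of the replicative helicase, fell from 57.3 and 68.5 FPKM to 15.7 and 15.3 FPKM (-1.95 ± 0.078 (SE), adjusted p = 7.40e-08). Kif11, the mitotic kinesin Eg5, fell from 53.6 and 63.6 FPKM to 8.96 and 8.77 FPKM (-2.59 ± 0.077 (SE), adjusted p = 1.44e-08), against 62.5 and 62.5 FPKM and 18.9 and 17.3 FPKM in parental cells. The 2 sets differed in time: at 8 h the median control change was -0.79 for G1/S genes and -0.25 for G2/M genes, where that of all genes was -0.14. Ube2c, an enzyme of mitotic exit, was still at 145 and 153 FPKM at 8 h, between 140.2 and 161 FPKM before and 34.6 and 34.3 FPKM at 24 h. Among the cytostatic genes, Cdkn2b, the CDK inhibitor p15, rose from 24.5 and 24.3 FPKM to 80.9 and 85.3 FPKM (1.73 ± 0.065 (SE), adjusted p = 5.45e-08), while Cdkn2c, the related p18, fell from 18.7 and 19.7 FPKM to 4.2 and 3.73 FPKM (-2.03 ± 0.059 (SE), adjusted p = 1.26e-08). Cdkn1a, p21, fell by a small margin (-0.31 ± 0.083 (SE), adjusted p = 0.0084). Of the 9 tested, 2 were called higher and 6 lower, where 25.5% and 45.1% of all genes were. Of the 8 called in parental cells, 7 were called the same way, against 78.6% of all parental calls. The member that did not was Ccnd2, cyclin D2, which fell from 29.6 and 27.2 FPKM to 18.5 and 18.9 FPKM in control cells and had 7.5 and 7.52 FPKM and then 8.55 and 8.94 FPKM in parental cells (0.2 ± 0.064 (SE), adjusted p = 0.029).

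Promoter sequences are shown for genes of the epithelial list, which moved in both directions, and of the G2/M list, which fell together. They come from RefSeq (build GRCm38.p6) and give the 250 bases before a start of transcription, 5′ to 3′ on the gene's strand. Crb3 and Ocln have 2 such windows each, and the second window of Ocln is shown because it holds the letters, while the first (chr13:100552719-100552968) has none. The first 3 hold CACCTG or its reverse complement, the E-box to which Snail and Zeb proteins bind, in capitals (in Cldn4 the capitals further upstream are TGANTCA, the site of AP-1). Crb3 and Ocln fell and Cldn4 rose.
Crb3, chr17:57061951-57062200, plus strand: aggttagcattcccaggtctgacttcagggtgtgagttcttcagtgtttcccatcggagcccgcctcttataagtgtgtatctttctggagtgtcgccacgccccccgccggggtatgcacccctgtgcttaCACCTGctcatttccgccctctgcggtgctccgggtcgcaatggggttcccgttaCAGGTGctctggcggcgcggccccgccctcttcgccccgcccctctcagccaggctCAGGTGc
Ocln, chr13:100552499-100552748, minus strand: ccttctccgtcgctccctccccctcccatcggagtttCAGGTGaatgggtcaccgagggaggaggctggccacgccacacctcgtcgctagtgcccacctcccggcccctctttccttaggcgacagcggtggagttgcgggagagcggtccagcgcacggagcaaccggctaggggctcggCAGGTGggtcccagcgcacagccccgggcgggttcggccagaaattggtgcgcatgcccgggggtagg
Cldn4, chr5:134946935-134947184, minus strand: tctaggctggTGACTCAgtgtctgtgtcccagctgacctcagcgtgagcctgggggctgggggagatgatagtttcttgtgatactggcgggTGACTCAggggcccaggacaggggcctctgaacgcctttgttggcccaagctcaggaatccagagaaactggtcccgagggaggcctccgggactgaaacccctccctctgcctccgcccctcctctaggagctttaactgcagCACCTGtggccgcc
The next 3 hold TTTGAA or its reverse complement, the core of the cell cycle homology region through which many G2/M genes are repressed in resting cells, in capitals. All 3 genes fell.
Kif11, chr19:37376132-37376381, plus strand: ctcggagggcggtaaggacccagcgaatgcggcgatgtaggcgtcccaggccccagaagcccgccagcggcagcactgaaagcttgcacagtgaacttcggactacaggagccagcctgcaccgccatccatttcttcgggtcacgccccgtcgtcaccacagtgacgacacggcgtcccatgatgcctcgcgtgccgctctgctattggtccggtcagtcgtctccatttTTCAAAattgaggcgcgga
Cdk1, chr10:69352913-69353162, minus strand: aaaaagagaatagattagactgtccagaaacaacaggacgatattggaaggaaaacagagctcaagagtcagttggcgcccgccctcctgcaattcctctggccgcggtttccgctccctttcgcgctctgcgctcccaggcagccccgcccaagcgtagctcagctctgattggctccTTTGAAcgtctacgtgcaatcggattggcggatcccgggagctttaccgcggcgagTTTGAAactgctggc
Cdc20, chr4:118437344-118437593, minus strand: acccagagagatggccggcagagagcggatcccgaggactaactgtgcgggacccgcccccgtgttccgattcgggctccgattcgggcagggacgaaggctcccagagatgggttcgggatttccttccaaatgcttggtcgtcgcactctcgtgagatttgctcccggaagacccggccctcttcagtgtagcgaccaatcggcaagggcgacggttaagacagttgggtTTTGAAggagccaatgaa

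In the window from 250 bases before to 50 after the start, TTTGAA in either direction was found in 11 of the 16 G2/M genes with an entry (68.8%), against 20.2% of all 27025 genes in the RefSeq table and 17.9% of its 32851 windows. The match lay 19 bases before the start in Kif11, 15 and 71 in Cdk1 and 18 in Cdc20. CACCTG in either direction was found in 12 of 15 junction and keratin genes with an entry, among them Cldn4 and Krt7, which rose, as well as Crb3 and Ocln, which fell. Of all genes in the table, 22.6% hold it, as do 20.2% of its windows and 19.8% of the matched genes tested in both populations. Since 15 of 20 members have an entry, this count is not a property of the list, and the same holds for the classes of repeating and non-repeating genes, where 8277 of 10843 genes matched. The letters do not show a bound site.

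Genes of sterol synthesis repeated in part. In parental cells 19 of 20 tested genes of cholesterol synthesis and uptake were called lower, with a median of -0.58 relative to all genes. In control cells 10 of 20 were called lower and 3 higher, with a median of -0.12, and of the 18 called in parental cells and tested in both, 9 were called the same way and 2 the opposite way. After quantile normalization 4 were called lower and 5 higher in control cells, and 17 lower in parental cells, so the control count changed with the scaling. Without untreated control replicate 1 or 2, 7 were called lower and 3 higher. Insig1, a sterol sensor of the endoplasmic reticulum, had 15.3 and 15.5 FPKM in untreated control cells, 43.5 and 44.6 FPKM at 8 h, and later only 15.8 and 17.1 FPKM (0.09 ± 0.10 (SE), adjusted p = 0.474). In parental cells it fell from 30.4 and 29.7 FPKM to 16.5 and 16.1 FPKM (-0.84 ± 0.069 (SE), adjusted p = 3.82e-05). Both populations thus stood at nearly equal levels at 24 h, and the untreated levels differed. At 8 h the list's median in control cells was 0.62.

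Of 16 glycolysis genes, 11 were called lower and 4 higher in control cells, where 45.1% and 25.5% of all genes were. The median was -0.18 relative to all genes against -0.63 in parental cells. Of the 16 parental calls, 14 repeated, against 78.6% of all parental calls (8 lower, 4 higher and 11 repeated after quantile normalization). Ldha, lactate dehydrogenase A, fell from 962 and 1044 FPKM to 511 and 521 FPKM in control cells (-0.96 ± 0.046 (SE), adjusted p = 2.21e-07) and from 1471 and 1428 FPKM to 503 and 502 FPKM in parental cells (-1.53 ± 0.042 (SE), adjusted p = 6.18e-07). Hk2, hexokinase 2, rose in both, to 16.7 and 17.6 FPKM and 16.4 and 16.3 FPKM. Slc2a1, the glucose transporter GLUT1, went opposite ways: from 23.8 and 25.3 FPKM to 32.3 and 32.3 FPKM in control cells (0.38 ± 0.05 (SE), adjusted p = 1.16e-04) and from 34.5 and 34.9 FPKM to 26.3 and 25.8 FPKM in parental cells (-0.4 ± 0.046 (SE), adjusted p = 1.99e-04). The control value at 8 h, 54.2 and 51.6 FPKM, lay above both.

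Hypoxia-response genes were mixed, with 4 of 10 called higher and 3 lower in control cells, where 25.5% and 45.1% of all genes were, and 3 and 5 in parental cells, where 33.4% and 37.1% were. Relative to all genes the medians were 0.28 and -0.21. Vegfa, the vascular growth factor, rose from 16.4 and 15.6 FPKM to 95.5 and 90.6 FPKM (2.47 ± 0.043 (SE), adjusted p = 9.60e-10), and Egln3, a prolyl hydroxylase that acts on HIF, fell from 19.2 and 17.6 FPKM to 1.45 and 1.36 FPKM (-3.01 ± 0.064 (SE), adjusted p = 2.60e-09), both as in parental cells (1.68 and -3.03). ER chaperone genes were called higher in 10 of 14 and lower in 1 in control cells, with a median of 0.62 above that of all genes, against 8 higher, 3 lower and 0.21 in parental cells. Xbp1, a transcription factor of the unfolded protein response, rose from 29.8 and 26.5 FPKM to 63.7 and 63.2 FPKM in control cells (1.15 ± 0.051 (SE), adjusted p = 1.43e-07) and from 42.7 and 42.2 FPKM to 52 and 51.1 FPKM in parental cells (0.27 ± 0.085 (SE), adjusted p = 0.0236). Herpud1, of ER-associated degradation, was the member that fell in control cells, from 72.2 and 56.9 FPKM to 29.6 and 27.7 FPKM, and it fell in parental cells too (-1.43). After quantile normalization 13 members were called higher in control cells, 2 of them opposite to parental cells.

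The next 3 lists lay near the shares of all genes tested, of which 25.5% were called higher and 45.1% lower and 78.6% of parental calls repeated. Of 19 ATF4 and serine-glycine genes, 5 were called higher and 10 lower in control cells, with a median of -0.05 relative to all genes, and 13 of 16 parental calls repeated. Psat1, of serine synthesis, fell from 234 and 280.2 FPKM to 67.5 and 65.6 FPKM (-1.93 ± 0.085 (SE), adjusted p = 1.28e-07), and Nupr1, a stress-induced chromatin protein, rose from 59.1 and 60.1 FPKM to 202 and 195 FPKM (1.72 ± 0.037 (SE), adjusted p = 2.88e-09). Of 16 p53 target genes, 4 were called higher and 9 lower, with a median of -0.14 relative to all genes, and 7 of 11 parental calls repeated. The lower calls were 5 after quantile normalization and 6 without untreated control replicate 1. Pmaip1, the proapoptotic Noxa, rose (1.07 ± 0.081 (SE), adjusted p = 3.37e-06) and the stress cytokine Gdf15 fell (-1.23 ± 0.14 (SE), adjusted p = 5.81e-05). Of 10 interferon response genes, 3 were called higher and 5 lower, with a median of -0.08 relative to all genes, and all 5 parental calls repeated. Irf1 rose (0.83 ± 0.061 (SE), adjusted p = 2.79e-06) and Mx1, an antiviral GTPase, fell from 1.69 and 1.58 FPKM to 0 and 0.0284 FPKM, against 6.03 and 6.29 FPKM and 0.0788 and 0.156 FPKM in parental cells.

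AP-1 and immediate early genes were called higher in 7 of 11 and lower in 2 in control cells, with a median of 0.65 above that of all genes, against 5 higher, 4 lower and 0.11 in parental cells. Junb and Fosl2 rose in both, by 1.87 and 1.77 in control and 1.23 and 1.9 in parental cells. Maff, a small Maf protein, was called in opposite ways, from 13.2 and 10.9 FPKM to 26.4 and 24.8 FPKM in control (1.03 ± 0.094 (SE), adjusted p = 1.18e-05) and from 11.7 and 12.6 FPKM to 10.7 and 10.4 FPKM in parental cells (-0.19 ± 0.054 (SE), adjusted p = 0.0157). Atf3, a stress-induced member of the family, had 6.05 and 4.93 FPKM and then 5.65 and 5.14 FPKM in control cells (-0.02 ± 0.17 (SE), adjusted p = 0.933) and rose from 3.05 and 3.21 FPKM to 7.54 and 7.76 FPKM in parental cells.

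Of 13 lamina genes, 4 were called higher and 6 lower in control cells, near the 25.5% and 45.1% of all genes tested, and all 7 parental calls repeated. Without untreated control replicate 1, 2 were called higher and 7 lower. Lmnb1, lamin B1, fell from 29.2 and 36.5 FPKM to 18.4 and 17.9 FPKM (-0.82 ± 0.18 (SE), adjusted p = 0.00317), against 36.9 and 36.3 FPKM and 19.5 and 17.6 FPKM in parental cells. Lbr, the lamin B receptor, fell from 27.9 and 32.5 FPKM to 8.93 and 9.02 FPKM (-1.64 ± 0.066 (SE), adjusted p = 7.89e-08). Cytosolic ribosomal protein genes were called lower in 70 of 76 in control and 44 of 76 in parental cells, with medians of -0.19 and -0.15 relative to all genes. After quantile normalization 36 were called lower and 0 higher in control cells, and 15 lower and 16 higher in parental cells, so the direction of the parental list is not fixed by these data. Clustered histone genes, many of them identical in sequence, were called higher in 2 and lower in 9 of 27, and small RNA genes in 7 and 4 of 113, all of these below the 25.5% and 45.1% of all genes tested. Histone counts were 2 and 6 without untreated control replicate 1 and 0 and 11 without replicate 2, and small RNA counts 3 and 5 without replicate 1. The libraries of small RNA genes spread widely: Snord47, the highest of them, was at 27443 and 33122 FPKM and then 169634 and 105871 FPKM.

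Genes called in opposite ways in the 2 populations were few and changed little. Of the genes tested in both tables, 120 were higher in parental and lower in control cells (3.32% of the parental rises) and 39 were lower in parental and higher in control cells (0.964% of the parental falls). The median size of the control change was 0.29 in the first set and 0.33 in the second, on the log2 scale, and none changed at least 2-fold in both. In the first set, untreated control replicate 1 lay above replicate 2 in 80.8% of the genes, against 56.3% of all genes. The 120 became 68 without untreated control replicate 1 and 186 without replicate 2, 60 and 64 without 24 h control replicate 1 or 2, 67 and 78 without either untreated parental library and 57 and 54 without either 24 h parental library. The 39 became 24 without 24 h control replicate 1 and 21 without 1 of the 24 h parental libraries. These counts were taken anew in each fit and can include genes outside the 120 and the 39. After quantile normalization such new counts were 65 and 73, and 42 of the 120 and 32 of the 39 were still called in opposite ways.

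The named genes of the first set were Foxj1, 2810474O19Rik, Sesn3, Hcfc1r1, Glis2 and 1190002N15Rik. Foxj1, a factor of motile cilia, had 9.18 and 5.01 FPKM in untreated and 3.64 and 3.58 FPKM in 24 h control cells (-0.76 ± 0.27 (SE), adjusted p = 0.0302) and rose from 3.11 and 3.27 FPKM to 9.5 and 10.1 FPKM in parental cells (1.36 ± 0.068 (SE), adjusted p = 4.20e-06). Its untreated control libraries lay far apart, and without replicate 1 the control change was no longer called (log2 change -0.38, adjusted p = 0.226). The call was also lost without either 24 h control library (0.0892 and 0.0964), after quantile normalization (0.0613), with no filter (0.0612) and in the fit of 4 control libraries (0.0587), so the parental rise did not repeat while its reversal was not called in these fits. Sesn3, a sestrin of the oxidative stress response, fell from 39.4 and 29.5 FPKM to 22.5 and 25.5 FPKM in control cells (-0.49 ± 0.11 (SE), adjusted p = 0.00391) and rose from 22.8 and 23.6 FPKM to 33.1 and 35.5 FPKM in parental cells. Hcfc1r1, a partner of the cell cycle factor HCF-1, lost its call (-0.49 ± 0.16 (SE), adjusted p = 0.0194) without untreated control replicate 1 (0.122) and without either 24 h control library (0.0771 and 0.0594). The zinc finger gene Glis2 (-0.45 in control, 0.37 in parental cells), 2810474O19Rik (-0.77 and 0.5) and 1190002N15Rik (-0.57 and 0.36) kept theirs in every alternative fit of the control libraries.

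Those of the second set, with Slc2a1, were Ifitm3, Phlda1, Scand1, Hgfac and Gm20594. Ifitm3, an antiviral membrane protein, rose from 5.14 and 4.83 FPKM to 21.1 and 18 FPKM in control cells (1.78 ± 0.28 (SE), adjusted p = 4.24e-04) and fell from 54 and 51.3 FPKM to 38.7 and 42.2 FPKM in parental cells (-0.37 ± 0.057 (SE), adjusted p = 8.53e-04). Even treated control cells stayed below treated parental cells. Phlda1, a pleckstrin homology-like protein, rose from 26.5 and 31.9 FPKM to 50.1 and 46.8 FPKM in control cells (0.72 ± 0.12 (SE), adjusted p = 7.55e-04) and fell from 24.9 and 23.1 FPKM to 16.8 and 14.9 FPKM in parental cells (-0.57 ± 0.072 (SE), adjusted p = 3.33e-04). Untreated levels were close here, and the paths parted. Hgfac, the protease that activates hepatocyte growth factor, went from 6.06 and 6.58 FPKM to 9.24 and 8.92 FPKM and from 10.1 and 9.83 FPKM to 7.08 and 6.93 FPKM. Scand1 (0.79 and -0.54) and Gm20594 (1.03 and -0.57) showed the same pattern.

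**Figure D4:**
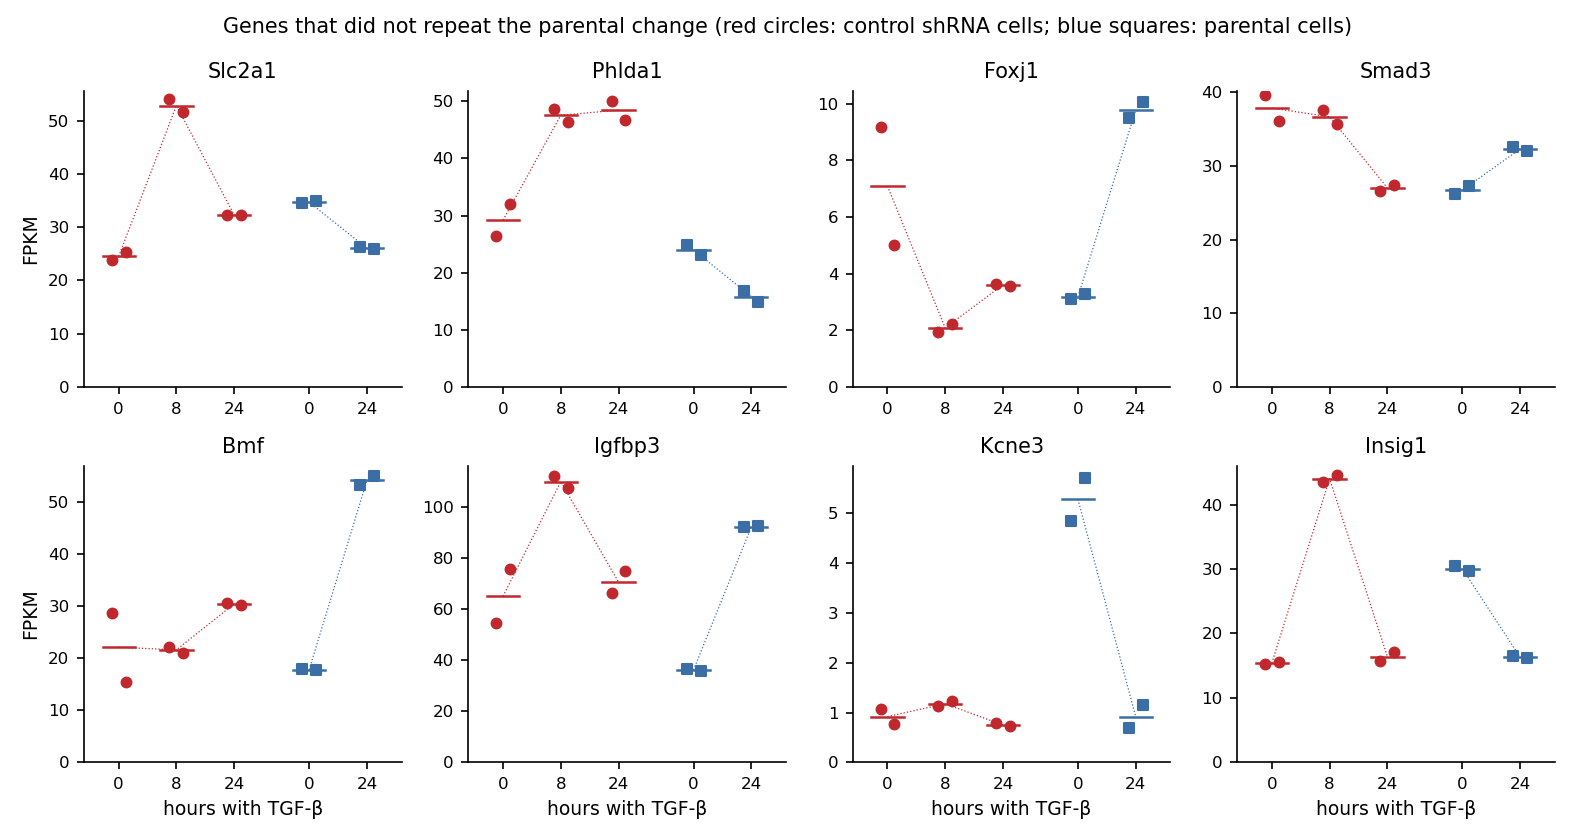
FPKM of 8 genes that did not repeat the parental change, with each point a library and each bar the mean of 2 libraries, for control shRNA cells at 0, 8 and 24 h (red circles) and parental cells at 0 and 24 h (blue squares), on linear axes that start at 0. Untreated control replicates lie apart for Foxj1 and Bmf, while Kcne3 starts at 1.07 and 0.77 FPKM in control cells and at 4.85 and 5.7 FPKM in parental cells.

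Of the 1280 large parental changes, 24 were not called the same way in control cells, 17 rises and 7 falls (53 changes with an added constant of 0.1), and in all 24 the 95% interval of the control change left out the parental estimate. Among the 17 rises, untreated control cells stood above parental cells in 15, taking each table relative to its median, as they did in 5421 of all 10843 genes. Untreated control replicate 1 lay above replicate 2 in 13, against 56.3% of all genes. The median gap, control minus parental, was 0.61 untreated and -0.68 at 24 h on the log2 scale. In 8 of the 17 the gap was larger untreated, against 45.9% of all genes. The same untreated values entered the choice of these genes. Bmf, a BH3-only protein that promotes apoptosis, went from 17.8 and 17.8 FPKM to 53.3 and 55 FPKM in parental cells (1.55 ± 0.086 (SE), adjusted p = 6.35e-06), and had 28.7 and 15.5 FPKM and then 30.6 and 30.2 FPKM in control cells (0.51 ± 0.24 (SE), adjusted p = 0.0836, 95% interval -0.03 to 1.04). Without untreated replicate 1 the control rise was called (log2 change 0.93, adjusted p = 0.00115), at a smaller size than the parental one. Bcl2l11, which encodes the related protein Bim, did not repeat either, with a parental rise of 1.00 and a control change of -0.15 (95% interval -0.46 to 0.16). Calcoco1, a receptor of autophagy of the endoplasmic reticulum, had 29.4 and 17.7 FPKM and then 31.5 and 30.7 FPKM in control cells (0.43 ± 0.19 (SE), adjusted p = 0.0694) against a parental rise from 12.4 and 12.4 FPKM to 36.1 and 37.2 FPKM, and was called without untreated replicate 1 (0.78, adjusted p = 0.000484). Bmf and Calcoco1 were also called after quantile normalization (adjusted p = 0.036 and 0.0242).

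Krt16, a keratin of stratified epithelia, had 2.99 and 3.39 FPKM and then 3.1 and 3.1 FPKM in control cells, with 19.8 and 18.1 FPKM in between at 8 h (-0.03 ± 0.14 (SE), adjusted p = 0.863). In parental cells it rose from 0.743 and 0.915 FPKM to 5.16 and 5.46 FPKM. Igfbp3, which binds insulin-like growth factors, showed a like course in control cells, with 54.6 and 75.7 FPKM before, then 112 and 108 FPKM at 8 h, and at the end 66.3 and 75.1 FPKM (0.13 ± 0.13 (SE), adjusted p = 0.386), against a parental rise from 36.7 and 35.8 FPKM to 92.1 and 92.5 FPKM. It was called without untreated replicate 2 (0.36, adjusted p = 0.00595), still far below the parental change of 1.32. Tgfb2 had 3.2 and 2.11 FPKM and then 3.62 and 4.13 FPKM in control cells (0.43 ± 0.18 (SE), adjusted p = 0.0585) and rose from 2.71 and 2.83 FPKM to 7.75 and 7.15 FPKM in parental cells. It crossed the threshold without untreated replicate 1 (0.65, adjusted p = 0.0181), after quantile normalization (0.56, adjusted p = 0.0145) and in the fit of the 6 control libraries (adjusted p = 0.039).

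The 7 large falls that did not repeat had a low start in control cells: in all 7 the untreated control level lay below the parental one. The median difference was -1.04 on the log2 scale relative to all genes. In 6 the gap between populations was larger untreated than at 24 h, against 45.9% of all genes tested in both tables. Untreated values entered the choice of these genes as well. Kcne3, a subunit of potassium channels, fell from 4.85 and 5.7 FPKM to 0.685 and 1.15 FPKM in parental cells and had 1.07 and 0.77 FPKM and then 0.78 and 0.72 FPKM in control cells (-0.13 ± 0.099 (SE), adjusted p = 0.27). Tnfaip2, induced by tumor necrosis factor, fell from 14.3 and 13.8 FPKM to 4.68 and 5.3 FPKM in parental cells and had 1.94 and 2.14 FPKM and then 2.7 and 2.35 FPKM in control cells (0.21 ± 0.095 (SE), adjusted p = 0.0729), where quantile normalization (0.33, adjusted p = 0.0159) and the fit of the 6 control libraries (adjusted p = 0.0476) gave a rise, opposite to the parental fall. Cd82, a tetraspanin, fell from 39.1 and 41.8 FPKM to 20.2 and 18.9 FPKM in parental cells, and had 21.2 and 16 FPKM and then 15.5 and 15.3 FPKM in control cells (-0.24 ± 0.10 (SE), adjusted p = 0.0671). Its control fall was called without untreated replicate 2 (-0.43, adjusted p = 0.000468) and with a replicate block (adjusted p = 0.0437). Serpinb5, the serpin maspin, was at 10.9 and 17.5 FPKM in untreated control cells, reached 45.1 and 41.3 FPKM by 8 h and ended with 10.8 and 10.6 FPKM (-0.34 ± 0.22 (SE), adjusted p = 0.203), against a parental change of -1.25. Without untreated replicate 1 its fall was called (-0.66, adjusted p = 0.0253). Pgp, a phosphatase of glycolytic side products, fell by 1.1 in parental cells and had a control change of -0.25 (adjusted p = 0.0535), which was called in the fits of 6 (adjusted p = 0.00391) and 4 (0.0138) control libraries.

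In all, 1105 parental rises and 373 parental falls, most of them small, were not called in control cells. They include the large changes above that did not repeat, except Foxj1, which was called lower. Median sizes of these rises and falls were 0.09 and 0.11 on the log2 scale in control cells, against 0.27 and 0.26 in parental cells. Untreated control replicate 1 lay above replicate 2 in 77.5% of the former and 46.4% of the latter. Leaving replicate 1 out, 68.4% of the parental rises and 87.8% of the falls were called the same way in control cells, and leaving replicate 2 out, 58.8% and 86%.

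**Figure D5:**
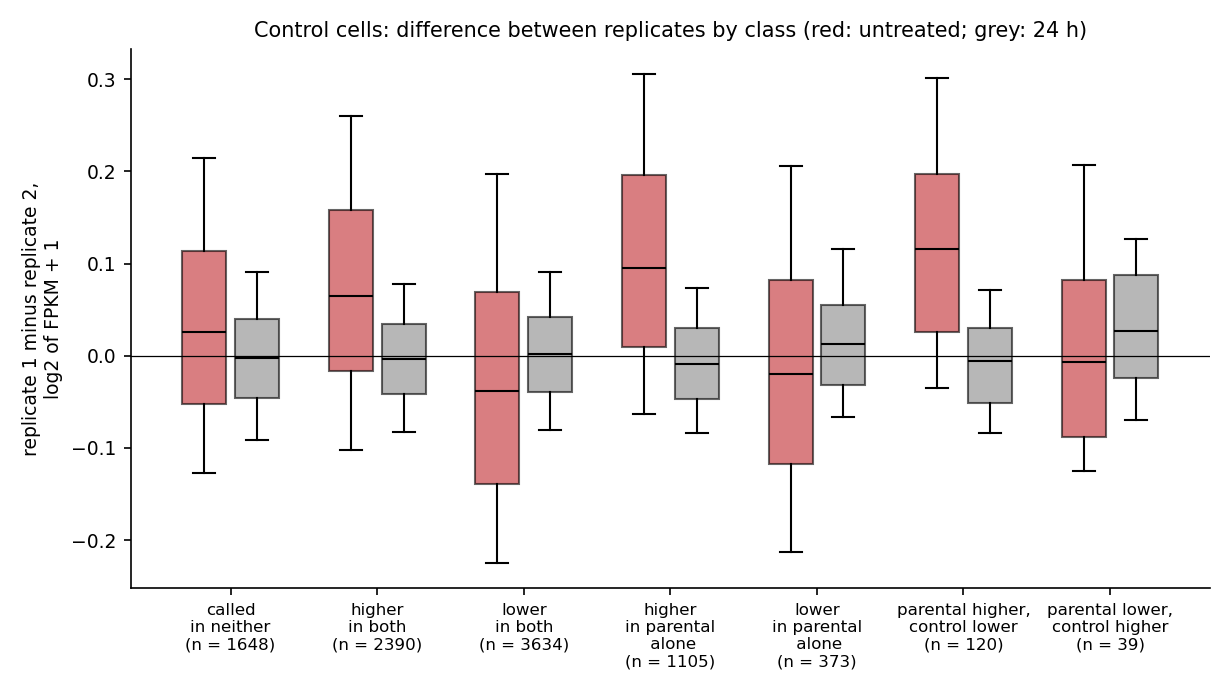
Difference between replicate 1 and replicate 2 of control cells on the log2(FPKM + 1) scale, untreated (red) and at 24 h (grey), by class of gene; boxes span the quartiles with the median as a line, and whiskers the 10th to 90th percentile of genes. The untreated difference is highest in genes higher in parental alone (median 0.09) and in genes higher in parental and lower in control cells (median 0.12), and the 24 h difference stays near 0 in every class.

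Other genes were called in control cells and not in parental cells, which does not show that they stayed unchanged in parental cells. The median log2 change over all genes tested was -0.13 in control and -0.02 in parental cells. Of the genes tested in both tables, 336 were called higher and 1198 lower in control cells alone, by medians of 0.28 and 0.28 on the log2 scale. Of the large control changes, 11 of 637 rises and 19 of 952 falls were not called in parental cells, and 3 and 2 were called the opposite way. Ckb, the brain-type creatine kinase, rose from 1.38 and 1.18 FPKM to 6.51 and 5.48 FPKM (1.62 ± 0.11 (SE), adjusted p = 1.39e-06), with parental values of 3.36 and 3.07 FPKM and 3.2 and 3 FPKM. P4ha1, a prolyl hydroxylase of collagen, rose from 8.56 and 8.4 FPKM to 19 and 18.9 FPKM (1.07 ± 0.075 (SE), adjusted p = 2.06e-06), with parental values of 14.1 and 13.2 FPKM and 15.1 and 14.6 FPKM. Dusp4, a phosphatase that inactivates MAP kinases, rose from 24.9 and 21.1 FPKM to 48.6 and 46.6 FPKM (1.02 ± 0.098 (SE), adjusted p = 1.66e-05), with parental values of 20.2 and 19.5 FPKM and 21.2 and 18.6 FPKM. In each of the 3 genes the 24 h control libraries lay above all 4 parental libraries. Pxdc1 (1.05) and the zinc finger gene Zfp771 (1.1) were of the same kind, as was Rnaset2b (1.94), whose near-identical neighbour Rnaset2a makes its level uncertain.

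Il1rn, the antagonist of the interleukin-1 receptor, fell from 28.4 and 28.7 FPKM to 8.17 and 9.01 FPKM in control cells (-1.62 ± 0.13 (SE), adjusted p = 4.93e-06), with parental values of 23.7 and 25.3 FPKM and 24 and 26.8 FPKM. Slc4a4, a bicarbonate cotransporter, fell from 18.4 and 14.2 FPKM to 5.37 and 5.61 FPKM (-1.4 ± 0.094 (SE), adjusted p = 1.54e-06), with parental values of 8.46 and 9.15 FPKM and 8.03 and 8.66 FPKM. In both genes the drop was nearly complete at 8 h, at 9.94 and 9.23 FPKM and 5.05 and 5.02 FPKM. Tpd52l1 (-1.25) and the noncoding Snhg9 (-1.53) fell as well, with parental changes of -0.4 and -0.79 that were not called. The histone genes Hist1h4j (-1.83) and Hist1h4k (-1.66) encode the same protein and share reads. Another 607 genes were tested in the control table only, 312 of them because the parental table has no such symbol, and 376 were called. Part of this is naming: Msmo1 in the control table (-0.25) and Sc4mol in the parental table (-0.75) are names of the same sterol oxidase.

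Many genes had already changed at 8 h. In control cells 7360 of 11450 genes (64.3%) were called at 8 h, 2223 higher and 5137 lower, and 5687 (49.7%) between 8 and 24 h, 2884 higher and 2803 lower. These comparisons share libraries and are given side by side only. In lamin B1 KD cells, which were infected with an shRNA against Lmnb1, the response at 24 h was compared with that of control cells, and the difference was called in 540 genes (4.72%), 313 higher and 227 lower in KD cells. Cdh1 fell less in KD cells, with a difference of 0.81 on the log2 scale (adjusted p = 0.0246), and Kif11 fell further (-0.48, adjusted p = 0.0447). No difference was called for Fn1 (-0.16, 95% interval -1.11 to 0.8) or Krt19 (0.63, -0.36 to 1.61), and these intervals are wide.

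Peaks of NMuMG cells at the start sites of these genes gave a readout that did not choose the classes. A gene was counted where a peak lay within 500 bp of any annotated start (GENCODE M1, mm9, 10273 of the 10843 genes placed by symbol), with Wilson 95% intervals that cover counting error only. The lists hold 9782 ATAC-seq peaks untreated and 33811 at 24 h, so shares are compared within a list. Genes that rose at least 2-fold in both populations (424 placed) had an ATAC-seq peak in 33.7% (29.4% to 38.4%) in untreated cells and 75.7% (71.4% to 79.6%) at 24 h, against 61.1% (60.2% to 62.0%) and 89.7% (89.1% to 90.3%) of all genes tested in both tables. Genes that fell at least 2-fold in both (603 placed) had one in 50.6% (46.6% to 54.6%) and 75.6% (72.0% to 78.9%). Both sets lay below all genes at each time, and the genes that rose lay below those that fell in untreated cells.

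Lamin B1 peaks, of which the lists hold 4645 untreated and 7083 at 24 h, were found at 24.5% (20.7% to 28.8%) of the genes that rose and 23.9% (20.6% to 27.4%) of those that fell in untreated cells, against 30.3% (29.5% to 31.2%) of all genes. At 24 h they were found at 37.7% (33.3% to 42.4%) and 28.5% (25.1% to 32.3%), against 41.6% (40.6% to 42.5%). Parental rises that fell in control cells (113 placed) had a lamin B1 peak in 23.0% (16.2% to 31.6%) and 41.6% (32.9% to 50.8%) and an ATAC-seq peak in 62.8% (53.6% to 71.2%) and 92.9% (86.7% to 96.4%). Parental falls that rose in control cells (36 placed) had a lamin B1 peak in 38.9% (24.8% to 55.1%) and 44.4% (29.5% to 60.4%). They had an ATAC-seq peak in 58.3% (42.2% to 72.9%) untreated and 77.8% (61.9% to 88.3%) at 24 h. That last interval lies below the value of all genes, and the other intervals of both sets hold it. With peaks at or above the median score it was 63.9% (47.6% to 77.5%), and the interval held the value of all genes, 75.6%.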

How the data were processed

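RNA-seq libraries of total RNA were prepared from NMuMG cells and sequenced on an Illumina HiSeq 2500. The authors aligned the reads and deposited FPKM values per gene in separate tables for parental cells (6 libraries) and for control and KD cells (12 libraries). The submitters' processing notes name Bowtie, TopHat and Cufflinks and the build mm9, without versions. The tables carry no header, so columns were assigned from the column order spelled out in the sample descriptions, and parental columns carry no replicate number. Raw counts were not used here, so depth is known only as a relative value. For lamin B1 ChIP-seq and ATAC-seq the deposited peak lists hold positions and a peak score from 1 library per time point, and the 8 h lists were not used.

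A gene entered the test where 2 or more libraries of its table had 1 FPKM or more, and log2(FPKM + 1) was fitted with limma 3.58.1 (R 4.3.3; empirical Bayes with a mean trend), 1 mean per group, with all 12 libraries of the control and KD table in one fit and the 6 parental libraries in another. Tests were two-sided, and p-values were adjusted by Benjamini-Hochberg over all genes tested. Tables were joined by symbol, and no test was made across them. In a test on simulated data of the control comparison (11450 genes), the test found 95% of the genes moved by 1 log2 unit and 80% of those moved by 0.5, with 5 unchanged genes among 180 calls. For the parental comparison (11309 genes) the shares were 98% and 81%, with 2 among 181. Both simulations changed 200 genes and drew the noise of each gene independently. These shares therefore need not hold for the real libraries, where most genes were called and replicates differed across many genes at once. Other steps used Python 3.11.15, numpy 2.4.6, pandas 2.3.3, scipy 1.17.1 and matplotlib 3.10.9.

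Genes were named by rule, leaving out small RNA genes. Named were the 8 largest rises and 8 largest falls in control cells without overlap between groups and with a mean of at least 5 FPKM. The rule also took the 6 largest per direction among genes called the same way, the opposite way, in parental cells alone (at least 2-fold) or in control cells alone, the extreme members of each list, and 9 genes fixed by name; some genes that the rule selects are not reported here. The members, lists and tests were chosen with earlier results of these data known. Alternatives were another added constant (0.1), no filter, quantile normalization, a 2-fold minimum, a replicate block, fits of 6 or 4 control libraries, leaving out each library, a wider window and a higher peak score.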

Additional observations from a re-analysis of the deposited data

Results flagged for a closer look

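The response at 24 h differed between KD and control cells, by the test of that difference in the limma fit, in 540 genes. Among the genes the rule named, the difference (KD minus control, log2) was positive for Itgb7 (1.66), Hist1h4h (1.34), S100a4 (0.92), Slc4a4 (0.82), Lgals2 (0.82), Cdh1 (0.81), Ass1 (0.69), 1190002N15Rik (0.61), Lgals4 (0.45) and Nupr1 (0.32). It was negative for Alb (-2.60), Lce1g (-1.02), Phlda1 (-0.87), Egln3 (-0.79), Mcm5 (-0.61), Kif11 (-0.48), Vegfa (-0.37), Mx1 (-0.36) and Slc2a1 (-0.34). Adjusted p ran from 0.000642 for Lgals2 to 0.0468 for Hist1h4h.

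In 13 genes that the rule named both treated control libraries lay on one side of the untreated ones and both treated parental libraries on the other; the difference between the populations was not tested, since the tables were normalized separately. The control change was positive for Ifitm3 (1.78), Gm20594 (1.03), Scand1 (0.79), Phlda1 (0.72), Hgfac (0.46) and Slc2a1 (0.38), which fell in parental cells. It was negative for 2810474O19Rik (-0.77), Foxj1 (-0.76), 1190002N15Rik (-0.57), Hcfc1r1 (-0.49), Sesn3 (-0.49), Smad3 (-0.47) and Glis2 (-0.45), which rose in parental cells. Maff, Ets1 and Ccnd2, given as examples of their lists, showed the same pattern, with control changes of 1.03, -0.19 and -0.58.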

How the results depend on the processing

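Of 1040 alternative values of the 104 named genes tested in control cells, 996 kept their side of the threshold, 26 lost and 18 gained a call. No gene called in the main or the alternative fit changed sign between them. Changes of sign in genes called in neither fit were not counted. With a 2-fold minimum, 1670 genes were called in control cells (681 higher, 989 lower), 1333 in parental cells (597 and 736) and 1064 in both the same way (440 and 624), no gene was called in opposite ways (0 of each pattern), and 216 large parental changes were not repeated, 177 of them with an interval that left out the parental estimate. That minimum requires more of each gene by construction. After quantile normalization 65 parental rises and 73 parental falls were reversed, and with an added constant of 0.1, 53 large parental changes were not repeated, in all 53 with an excluding interval. The cause of these shifts was not tested.

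Leaving out 1 library at a time gave 7061 to 7763 calls in control cells (2520 to 2980 higher, 4532 to 4983 lower) and 5394 to 6026 repeated calls (2123 to 2474 higher, 3178 to 3552 lower). Reversed parental rises numbered 54 to 186 and reversed falls 21 to 39, and 18 to 33 large parental changes were not repeated (17 to 32 with an excluding interval). A group left with 1 library was assumed to vary like the others.

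The replicate numbers were not taken to pair the samples: differences between replicates correlated at 0.0226 across genes between untreated and 24 h control cells, and at -0.135 to 0.368 over all 15 pairs of groups, highest between 24 h control and 24 h KD cells. With the number as a block, 8042 genes were called in control cells, 6016 repeated the parental call, 113 and 39 were reversed and 24 large changes were not repeated.

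Peaks at or above the median score were found at 17.7% of the genes that rose at least 2-fold in both populations and 34.2% of those that fell for ATAC-seq untreated, at 54.2% and 56.7% at 24 h, at 15.6% and 12.4% for lamin B1 untreated, and at 23.3% and 16.4% at 24 h. Within 2500 bp the ATAC-seq shares at 24 h were 81.6% and 80.1%. Peak depth is unknown, and 2 libraries per group limit every test.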
